A study of Mus musculus with 4 samples.

Results

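The cytosolic ribosomal protein genes were followed across 4 RNA-seq libraries of mouse bone marrow cells. They were taken from the deposited expression table by symbol, as Rps or Rpl followed by a number, or Rpsa, Rplp0, Rplp1 and Rplp2. S6 kinase symbols and symbols marked as pseudogenes were left out. Of 24340 genes in the table, 85 carried such a symbol, and 69 of them averaged 1 FPKM or more. FPKM counts fragments per kilobase of transcript and 1000000 fragments. The 69 genes are 30 of 33 for the small subunit and 39 of 52 for the large subunit, out of 10471 genes that passed the same filter.

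The cytosolic ribosome is built from a small subunit, which decodes the mRNA, and a large subunit, which joins the amino acids. Each subunit holds ribosomal RNA and 1 copy of most of its proteins, so the cell needs these proteins in nearly equal amounts. Their mRNAs are among the most abundant of a growing cell, and most start with a run of pyrimidines through which mTORC1 controls their translation. In bone marrow, loss of 1 copy of many of these genes causes Diamond-Blackfan anaemia, in which red cell precursors fail. The mouse genome also holds many processed pseudogenes of them, which are copies of the spliced mRNA and can share long stretches with the true gene.

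All 4 libraries came from C57BL/6 bone marrow cells that were lineage-negative and Kit-positive and carried JAK2V617F, an activated form of the JAK2 kinase. They differed in Tet2, a DNA demethylating enzyme, as Tet2+/+ (wild type) or Tet2-/- (knockout), and in treatment, as control or ruxolitinib, an inhibitor of JAK1 and JAK2. There was 1 library in each of the 4 groups, and the labels give neither the dose and time of treatment nor the number of animals. The series' design text describes conditional inactivation of Tet2 in blood cells without naming the Cre line, and also speaks of Dnmt3a and Flt3ITD, which no label of these samples names. Values of the 4 libraries are given throughout in 1 order: the control and ruxolitinib libraries of the wild type, then the control and ruxolitinib libraries of the knockout.

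The libraries were estimated to hold 44.2 to 54.9 fragments per FPKM and kilobase of transcript. Kit stood at 421 to 647 FPKM, but mast cell genes were higher, with the protease Cma1 at 8289 to 15834 FPKM and the IgE receptor chain Fcer1a at 3451 to 6009 FPKM. Mpo, of granulocyte precursors, was at most 1.31 FPKM, and Flt3 and Cd3e were listed at 0. Of 7 stem and progenitor genes in the table, Kit, Mpo and Flt3 among them, 4 were above 1 FPKM in every library. Among these, Cd34 stood at 307 to 465 FPKM and Gata2 at 333 to 409 FPKM. Of 4 megakaryocyte genes 2 were above 1 FPKM in every library, with Itga2b at 442 to 743 FPKM. Of 8 mast cell genes in the table, 7 were above 1 FPKM in every library and Cpa3 was listed at 0. Their summed level was 25519, 29082, 17608 and 21274 FPKM, lower in the knockout and higher with ruxolitinib in both genotypes. Cma1, Fcer1a and Ms4a2 followed the sum in each of these comparisons, but other members did not. With ruxolitinib, Tpsb2 and Mcpt4 were higher in the knockout than in the wild type. Tpsab1 was higher in the knockout in both treatments and lower with ruxolitinib in both genotypes. Hdc was also lower with ruxolitinib in both genotypes. The part of these shifts in the results below was not tested. The wild type libraries held the Y-linked Ddx3y (21.3 and 18.7 FPKM) and the knockout libraries Xist (53.2 and 62.2 FPKM), so genotype and sex cannot be told apart. With 1 library in each group no spread can be estimated, and no difference below was tested here. In bulk RNA, fewer cells of a type and less RNA per cell cannot be told apart.

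The ribosomal protein genes did not stand at one level but spread from 1.31 FPKM (Rps12) to 2450 FPKM (Rplp1) by their mean. Of the 69 genes, 36 were at 100 FPKM or more, 15 were between 10 and 100 FPKM, and 18 were between 1 and 10 FPKM. Both subunits were split in this way, with 17 small and 19 large subunit genes at 100 FPKM or more. Together the 69 genes made up 4.89%, 4.67%, 5.07% and 4.70% of all FPKM in the 4 libraries. In both genotypes the control library held the larger share.

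**Figure D1:**
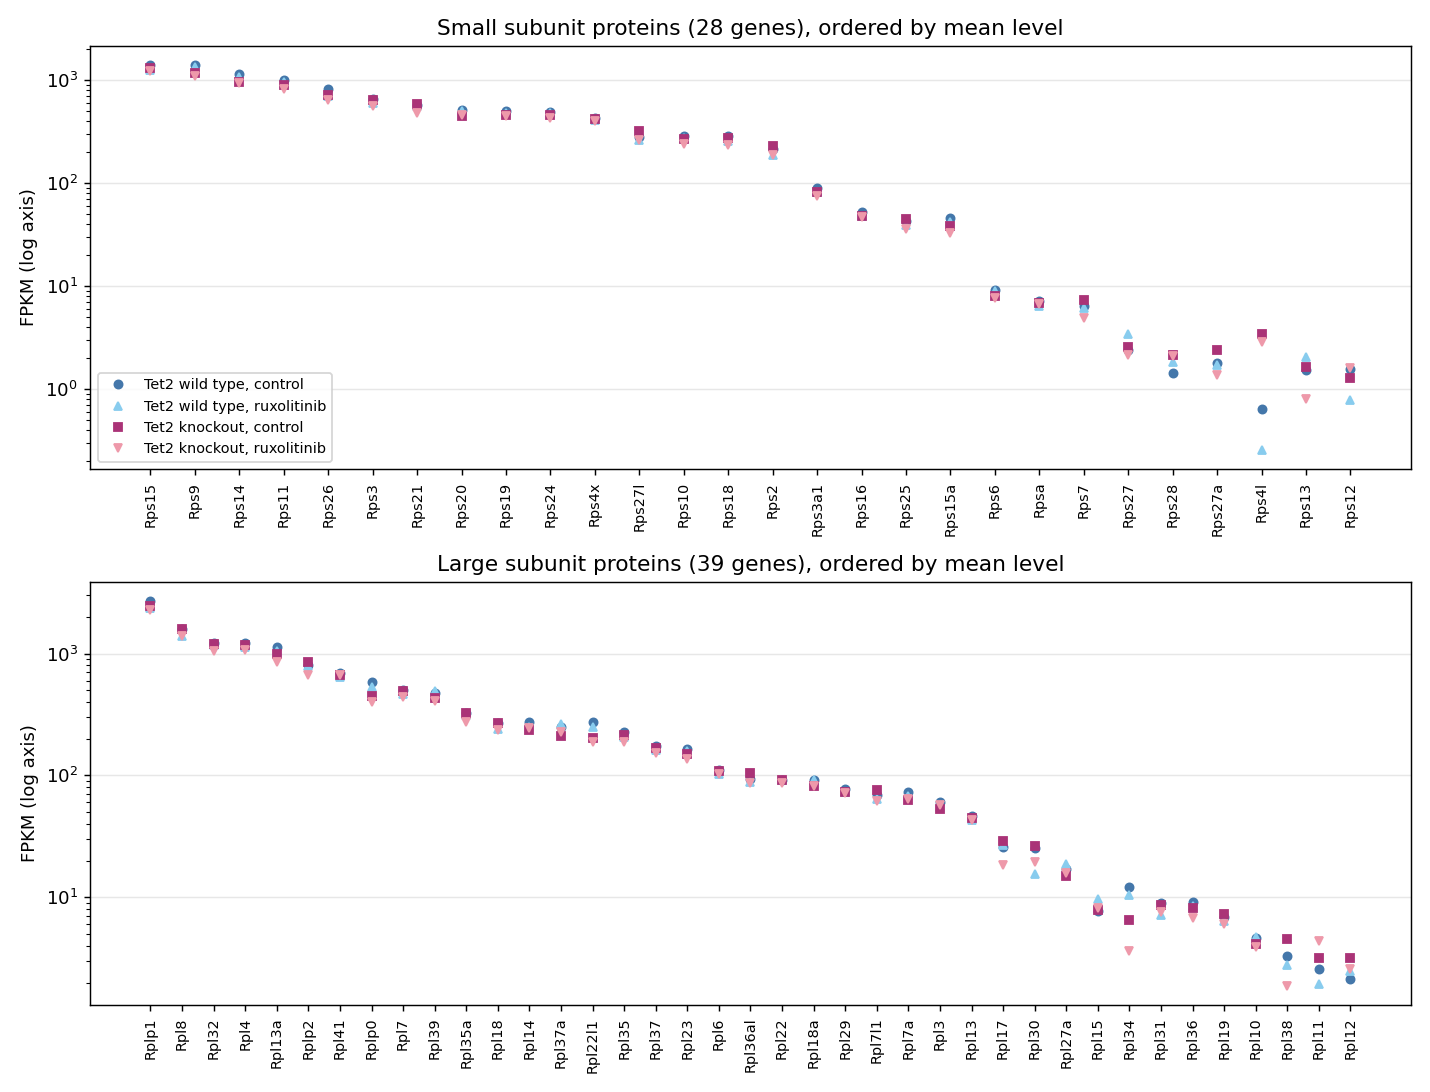
FPKM of 28 of the 30 small subunit genes (upper panel) and 39 large subunit genes (lower panel) on a log axis, ordered by mean, with 1 symbol for each of the 4 libraries. The symbols of a gene lie nearly on top of each other at 100 FPKM or more and spread apart among the lowest genes.

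Among small subunit proteins, Rps15 stood at 1406, 1271, 1330 and 1237 FPKM, and Rps9 at 1400, 1335, 1189 and 1112 FPKM. The position of Rps15 in the table, chr10:79697305-80369637, is shared with many other rows, among them Elane and Gpx4. Rps14, whose loss marks the 5q- syndrome, stood at 1152, 1077, 963 and 945 FPKM. All 3 genes were highest in the wild type control library. Rps3, at the mRNA entry site, stood at 655, 607, 640 and 569 FPKM. Rps19, the gene most often mutated in Diamond-Blackfan anaemia, stood at 500, 480, 463 and 451 FPKM. Other small subunit genes of equal standing in the ribosome were far lower. Rps6, the S6 kinase substrate, stood at 9.17, 9.06, 8.005 and 7.62 FPKM, and Rpsa, the laminin receptor precursor, at 7.20, 6.35, 6.84 and 6.73 FPKM. Rps27a, which is made as a fusion with ubiquitin, stood at 1.80, 1.70, 2.42 and 1.36 FPKM.

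Among large subunit proteins the highest was Rplp1, of the P stalk that recruits elongation factors, at 2703, 2363, 2461 and 2275 FPKM. Rpl8, which lies near the peptidyl transferase centre, stood at 1577, 1395, 1601 and 1392 FPKM. Rpl41, the shortest ribosomal protein, stood at 695, 638, 663 and 673 FPKM. These 3 genes had no knockout ruxolitinib value above that of the wild type control. The other P stalk genes were also abundant, with Rplp0, the stalk base, at 583, 533, 447 and 400 FPKM and Rplp2 at 801, 793, 856 and 673 FPKM. Rpl3, which reaches into the peptidyl transferase centre, stood at 60.4, 54.7, 52.6 and 57.4 FPKM. Rpl10, which joins the large subunit late, stood at 4.66, 4.74, 4.14 and 3.91 FPKM. Rpl11, which with Rpl5 and the 5S ribosomal RNA can bind Mdm2 and so stabilise p53, stood at 2.58, 1.96, 3.20 and 4.35 FPKM. The partners of 1 complex were thus listed at very unequal levels.

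The filter left out 16 symbols. The paralogs Rpl10l, Rpl39l and Rpl3l, which most tissues lack, had means of 0.00558, 0 and 0.0364 FPKM. The other 13 encode proteins of every cytosolic ribosome, such as Rpl5 at 0.312, Rpl23a at 0.153, Rps29 at 0.270 and Rps23 at 0.215 FPKM. Rpl26 was listed at 0 in all 4 libraries. Nearest to the limit of 1 FPKM were Rpl10a (0.887) and Rpl21 (0.876) below it and Rps12 (1.31) and Rps13 (1.498) above it.

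These levels followed how much of each coding sequence also occurs in other annotated genes. Every 50-base stretch of the coding sequence was looked up in the GENCODE M21 transcripts of all genes that do not overlap the member. For each gene the longest annotated coding sequence was used, such as 138 bases for Rpl41, 636 for Rps19 and 315 for Rps27l. It need not be the form that the cells mainly make. Shares in other forms of these genes were not measured and can differ. Of all pairs of a member and another gene sharing a stretch, 1096 of 1145 were with pseudogenes. None of the 36 genes at 100 FPKM or more had every stretch repeated elsewhere, against 4 of 15 between 10 and 100 FPKM, 11 of 17 between 1 and 10 FPKM and 12 of 16 under 1 FPKM. The 27 genes with every stretch repeated had a median of 1.82 FPKM, and the highest of them was Rps16 at 49.2 FPKM. Leaving out the paralogs, the 8 genes with under 40% of stretches repeated in this longest form stood at 90.5 to 1491 FPKM, with a median of 1075 FPKM. Rpl41 is among them by its form of 138 bases. Spearman's rho between level and repeated share was -0.66 over 84 genes and -0.85 over the 77 that are not paralogs. Stretches of 75 bases gave -0.65 and -0.84. These correlations are across genes of the same libraries, which are not independent replicates. No source used here gives the read length or the handling of reads with several positions, and their part in the low levels was not tested.

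**Figure D2:**
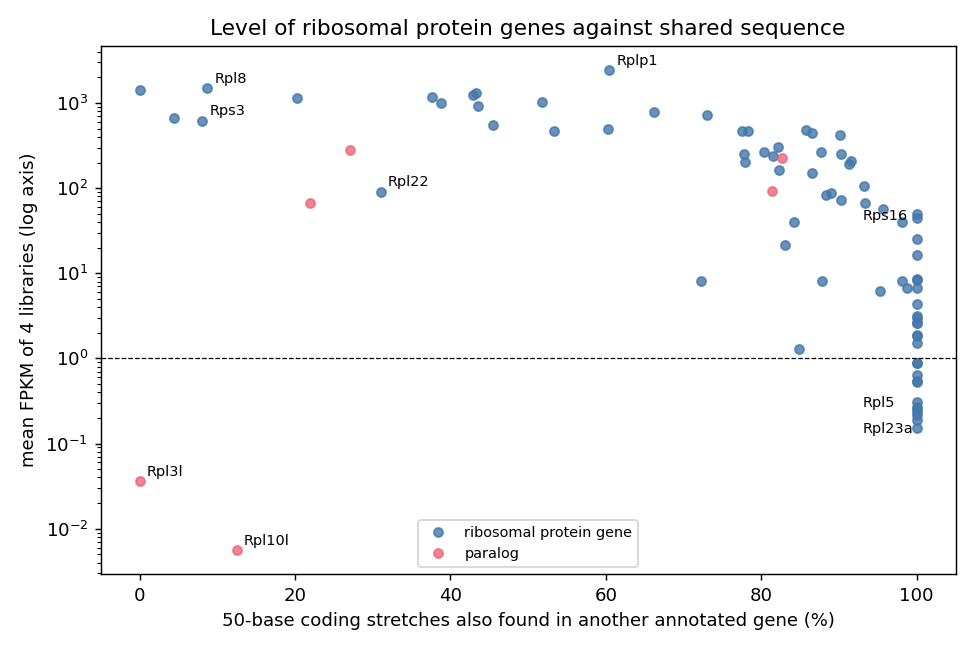
Mean FPKM of 4 libraries (log axis; Rpl26 and Rpl39l, at 0, and Rps4l, with no coding sequence matched, are not drawn) against the percentage of 50-base coding stretches also found in another annotated gene, for ribosomal protein genes and paralogs. The dashed line is the filter of 1 FPKM, and most genes below 10 FPKM sit at 100% while Rpl8 and Rps3 stand above 600 FPKM with under 10%.

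The first 60 coding bases, from GENCODE M21 on GRCm38 (mm10), show both ends of this range. They are printed for Rpl8, which shared 8.73% of its stretches, for Rps27l, which shared 27.1%, beside its closest copy, and for 4 genes whose copies match the start exactly. Capitals mark the bases of the copy that differ from the gene, position by position.
Rpl8: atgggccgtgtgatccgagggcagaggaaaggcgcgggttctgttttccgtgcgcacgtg
Rps27l: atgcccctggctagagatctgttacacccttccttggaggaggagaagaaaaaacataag
Gm14706, pseudogene of Rps27l: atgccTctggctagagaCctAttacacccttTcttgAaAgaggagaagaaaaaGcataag
Rpl5 and Gm15500: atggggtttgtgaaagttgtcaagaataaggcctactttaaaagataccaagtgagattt
Rpl26 and Gm15772: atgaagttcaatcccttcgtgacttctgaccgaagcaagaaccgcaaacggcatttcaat
Rpl30 and Gm12191: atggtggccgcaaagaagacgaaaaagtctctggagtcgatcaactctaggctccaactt
Rpl34 and Rpl34-ps1: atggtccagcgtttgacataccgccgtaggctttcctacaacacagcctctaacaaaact

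The Rps27l copy differed at 7 of the 60 bases, and the copies of Rpl5, Rpl26, Rpl30 and Rpl34 at 0. Rps27l, a p53-induced paralog of Rps27, stood at 283, 264, 323 and 263 FPKM, while Rps27, which shared 100% of its stretches, stood at 2.41, 3.40, 2.53 and 2.14 FPKM. The paralog Rpl7l1 went the other way: it shared 21.9% and had a mean of 67.8 FPKM, against 77.5% and 474.5 FPKM for Rpl7. So did Rpl22l1, with 82.6% and 228 FPKM, against 31.0% and 90.5 FPKM for Rpl22. Rpl36al, with 81.4% and 93.3 FPKM, stood above Rpl36a, with 100% and 0.187 FPKM, as Rps27l did above Rps27.

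For 3 genes the deposited table held a row named after a pseudogene at the position of the parent gene. At chr11:68901566-68904534, the Rpl26 locus, the row named Gm15772 stood at 387, 373, 344 and 330 FPKM while Rpl26 was at 0. GENCODE M21 places Gm15772 itself on chromosome 5, at 3236431 to 3236868. At chr15:34440506-34443276, Rpl30 stood at 25.6, 15.6, 26.5 and 19.4 FPKM and the row named Gm12191 at 392, 403, 346 and 323 FPKM. At chr3:130726827-130730398, Rpl34 stood at 12.2, 10.5, 6.58 and 3.63 FPKM. The row named Rpl34-ps1 there stood at 880.0 FPKM in wild type control cells and at 835 FPKM with ruxolitinib, and was listed at 0 in both knockout libraries. A listed 0 can be a failed estimate, so no fold is given for it.

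Ribosomal protein transcripts were lower with ruxolitinib in both genotypes at the median, by a small step. In wild type cells 58 of the 69 genes were lower with the drug, against 47.7% of all measured genes, and the median log2 ratio was -0.10. In knockout cells 59 of 69 were lower, against 48.7% of all genes, with a median of -0.15. All ratios are differences of log2(FPKM + 1), a scale on which ratios of low genes come out too small. The median over all measured genes was 0.01 in wild type and 0.00 in knockout cells. Small and large subunit genes had close medians, -0.10 and -0.10 in wild type and -0.14 and -0.15 in knockout cells.

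Over the 69 genes the drug ratios ran from -0.68 to 0.37 in wild type and from -0.95 to 0.35 in knockout cells, and over the 36 genes at 100 FPKM or more from -0.22 to 0.08 and from -0.35 to 0.10. Of these 36, 34 were lower with the drug in wild type cells (median -0.11) and 32 in knockout cells (median -0.14). Among all 803 measured genes at 100 FPKM or more, 66.3% and 61.4% were lower. In both genotypes 31 of 36 were lower, against 56.2% of the abundant genes. Rps2, at the mRNA entrance, stood at 216, 186, 230.2 and 188 FPKM, with log2 ratios of -0.21 in wild type and -0.29 in knockout cells. The ruxolitinib libraries were the lower pair and the genotypes overlapped. Rpl37a was the only one of the 36 above its control in both genotypes, at 251, 265, 212 and 228 FPKM, with ratios of 0.08 and 0.10.

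**Figure D3:**
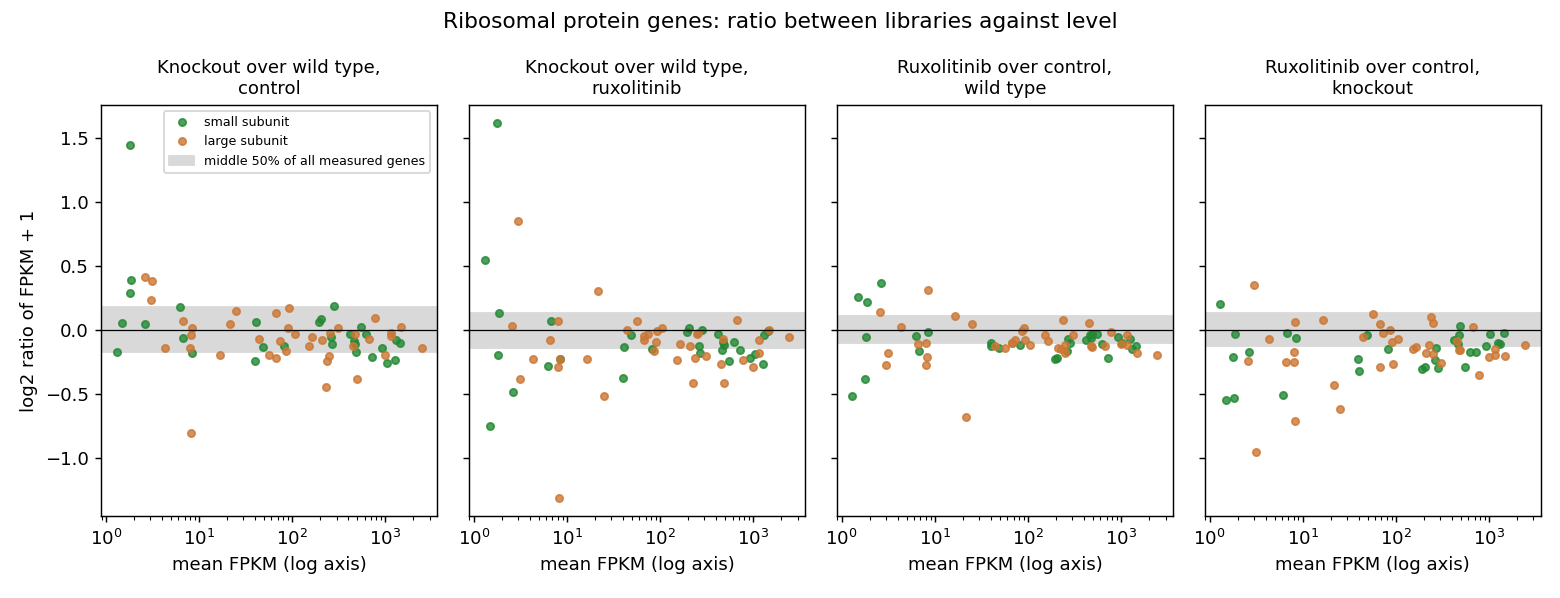
Log2 ratio of FPKM + 1 between 2 libraries against mean FPKM (log axis) for each of the 69 genes, with the middle 50% of all measured genes in grey. At 100 FPKM or more the points of the drug comparisons lie in a narrow band mostly below 0, and the wide ratios belong to genes under 30 FPKM.

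No ribosomal protein gene was at least 1.5-fold higher with ruxolitinib in either genotype, where 1.05% of all genes in wild type and 1.67% in knockout cells were. In wild type cells 1 gene, Rpl30, was at least 1.5-fold lower (log2 ratio -0.68), against 2.64% of all genes. Summed with the Gm12191 row at the same locus, the Rpl30 ratio was 0.00. In knockout cells 3 genes were at least 1.5-fold lower, Rpl38 (-0.95), Rpl34 (-0.71) and Rpl17 (-0.62), against 2.2% of all genes. Rpl38, which is needed for the translation of Hox mRNAs, stood at 3.28, 2.77, 4.58 and 1.89 FPKM, from an estimated 24, 22, 41 and 16 fragments. Its position in the table spans 4 other rows, among them Ttyh2. Rpl17 stood at 26.1, 26.9, 29.0 and 18.6 FPKM, with the knockout ruxolitinib library alone below the other 3. Every stretch of Rpl38 and Rpl17 occurs in other genes.

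The authors' deposited table gives a q-value for each pair of libraries, and no source used here says how its test estimated the spread from 1 library per group. In the authors' deposited table none of the 69 genes (0) had a q below 0.05 for the drug in wild type cells, against 6.29% of all genes. For the drug in knockout cells the authors' deposited table lists 3 (Rpl17, Rpl34 and Rps7), against 9.4% of all genes.

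The drug ratio of knockout cells minus that of wild type cells had a median of -0.05 over the 69 genes and of -0.01 over all genes. It was at least 1.5-fold higher for Rpl11 (0.62) and Rps12 (0.72), where 1.82% of all genes were. It was at least 1.5-fold lower for Rps13 (-0.80), Rpl38 (-0.77) and Rpl17 (-0.66), where 1.14% of all genes were. Rps13 stood at 1.53, 2.03, 1.63 and 0.802 FPKM and Rps12 at 1.56, 0.790, 1.27 and 1.61 FPKM, from an estimated 10 to 38 fragments per library. None of the 36 abundant genes was among them.

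Between genotypes the ribosomal protein medians were below 0 as deposited, by a step that depends on the scaling. Without drug 45 of 69 were lower in the knockout library, against 49.1% of all genes, with a median log2 ratio of -0.06. With ruxolitinib 56 of 69 were lower, against 49.3% of all genes, with a median of -0.11. Of the 36 abundant genes, 29 and 33 were lower, where 60.5% and 59.8% of all genes at 100 FPKM or more were. In both treatments 38 of 69 were lower, against 40.3% of all genes, and 27 of the 36 abundant genes, against 53.1%. This direction turned when the FPKM of each library was rescaled to the same sum (TPM): the medians became 0.08 and 0.02, while those of all genes became 0.15 and 0.13. Relative to the median of all genes, the ribosomal protein median as deposited was -0.07 without drug and -0.11 with it. On the TPM scale these gaps were -0.06 and -0.11. Rescaling multiplies each library by a single factor. Apart from the constant added before the logarithm it cannot change these gaps, so their likeness is no separate check. For the drug the rescaling left the sign, with medians of -0.06 in wild type and -0.12 in knockout cells.

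**Figure D4:**
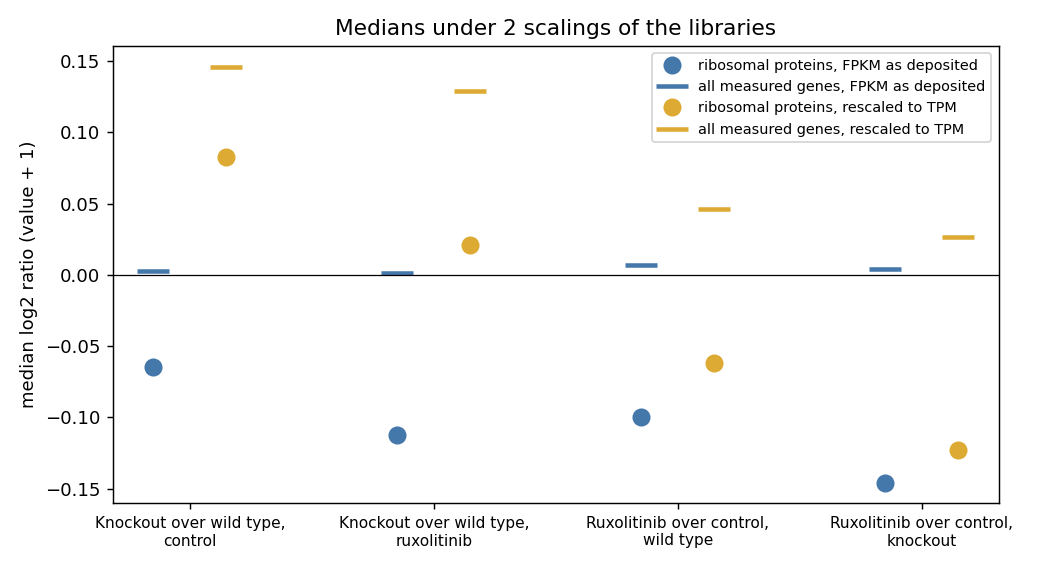
Median log2 ratio of the 69 ribosomal protein genes (points) and of all 10471 measured genes (bars) for the 4 comparisons, with FPKM as deposited and after rescaling to TPM. In each comparison the point lies below its own bar, and the knockout points change sign with the scale.

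Rplp0 and Rpl22l1 were the abundant genes with the most negative knockout ratios in both treatments. Rescaling to TPM shifts the ratios of abundant genes nearly alike, so it is no separate check of this order. Rplp0, at the levels given above, had log2 ratios of -0.38 without and -0.41 with ruxolitinib, and of -0.23 and -0.28 on the TPM scale. Both knockout libraries were below both wild type libraries. Rpl22l1, a paralog of Rpl22, stood at 275, 249, 202 and 187 FPKM, with ratios of -0.44 and -0.41, and of -0.29 and -0.28 on the TPM scale. Again the genotypes did not overlap. Rpl22 itself, which restrains Rpl22l1 and is needed for T cell development, stood at 91.2, 92.2, 92.2 and 86.3 FPKM, with knockout ratios of 0.02 and -0.10.

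In the authors' deposited table these were the only 2 of 69 genes with a q below 0.05 in the knockout comparison without drug (0.00852 for Rpl22l1 and 0.0336 for Rplp0), against 18.8% of all genes. With drug the authors' deposited table lists 5 (Rpl11, Rpl17, Rpl22l1, Rplp0 and Rps15a), against 12.8% of all genes. The other P stalk genes did not share the step of Rplp0: Rplp1 had ratios of -0.14 and -0.05, and Rplp2 of 0.10 and -0.24.

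At least 1.5-fold higher in the knockout control library was 1 gene, Rps4l (1.44), against 3.88% of all genes, and 1 gene was at least 1.5-fold lower, Rpl34 (-0.80), against 5.06%. With ruxolitinib Rps4l (1.61) and Rpl11 (0.85) were at least 1.5-fold higher, where 2.97% of all genes were. Rpl34 (-1.31) and Rps13 (-0.75) were at least 1.5-fold lower, where 3.34% of all genes were. Rps4l stood at 0.635, 0.256, 3.45 and 2.85 FPKM, both knockout libraries above both wild type libraries. It passed the filter of 1 FPKM only through the knockout libraries, where it is high. RefSeq types it as a transcribed pseudogene, and its position in the table, chr6:148047416-148444352, is shared with 4 other rows. Rpl34 was lower where the Rpl34-ps1 row at its locus was listed at 0. None of the 36 ribosomal protein genes at 100 FPKM or more was past 1.5-fold in these 4 comparisons. Among all 803 genes at that level, 0.996% to 2.12% were at least 1.5-fold higher and 2.37% to 7.35% at least 1.5-fold lower. The largest ratio of highest to lowest library among the 36 was 1.47.

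Of 23 genes listed for Diamond-Blackfan anaemia, 17 passed the filter, and their medians were -0.07 and -0.17 for the drug in wild type and knockout cells and -0.02 and -0.16 for the knockout without and with drug. On the TPM scale these were -0.02, -0.16, 0.13 and -0.02. Rps26 stood at 831, 713, 719 and 639 FPKM, with drug ratios of -0.22 and -0.17. Of the 5 measured paralogs, Rpl36al stood at 92.8, 87.9, 105 and 87.4 FPKM while Rpl36a had a mean of 0.187 FPKM.

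Other genes that make and serve the ribosome were described in the same way. Of 34 measured nucleolar genes for ribosomal RNA synthesis and processing, 32 were lower in wild type, against 47.7% of all genes (median log2 ratio -0.24), and 33 in knockout cells, against 48.7% (median -0.41). Of 76 mitochondrial ribosomal proteins, which serve translation inside mitochondria, 62 and 74 were lower, against the same 47.7% and 48.7% of all genes, with medians of -0.10 and -0.19. The 24 assembly factors had medians of -0.16 and -0.27, the 10 elongation and termination factors -0.16 and -0.30, and the 32 initiation factors -0.11 and -0.14. The 17 genes of the mTORC1 and S6 kinase axis had medians of -0.04 and 0.00. Nop56, of the box C/D snoRNP that guides ribosomal RNA methylation, stood at 38.7, 32.1, 56.9 and 42.4 FPKM, and Nop16 had drug ratios of -0.47 and -0.65.

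Between genotypes, on the scale as deposited, the medians of the nucleolar genes, mitochondrial ribosomal proteins, assembly, initiation and elongation factors were above 0, while that of the ribosomal proteins was below 0. All 34 nucleolar genes were higher in the knockout control library, against 50.4% of all genes, with a median of 0.37. With ruxolitinib 33 were higher, against 50.2% of all genes, with a median of 0.16. Nop58, its partner in that particle, stood at 78.3, 66.0, 116 and 83.6 FPKM. Its 2 knockout libraries were each above the wild type library of the same treatment. Mitochondrial ribosomal proteins had medians of 0.21 and 0.12, assembly factors of 0.26 and 0.12, initiation factors of 0.14 and 0.09 and elongation factors of 0.19 and 0.10. Within the elongation factors, Eef1a1, which carries aminoacyl-tRNA to the ribosome, stood at 2076, 2099, 1612 and 1728 FPKM, and Eef2, which drives translocation, at 1322, 1222, 1091 and 1042 FPKM. Both were lower in both knockout libraries, as Rplp0 was. The mTORC1 and S6 kinase axis had medians of -0.03 and 0.01. On the TPM scale the nucleolar medians were 0.52 and 0.30 for the knockout and -0.20 and -0.39 for the drug. The differences between these groups and the ribosomal proteins were not tested.

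**Figure D5:**
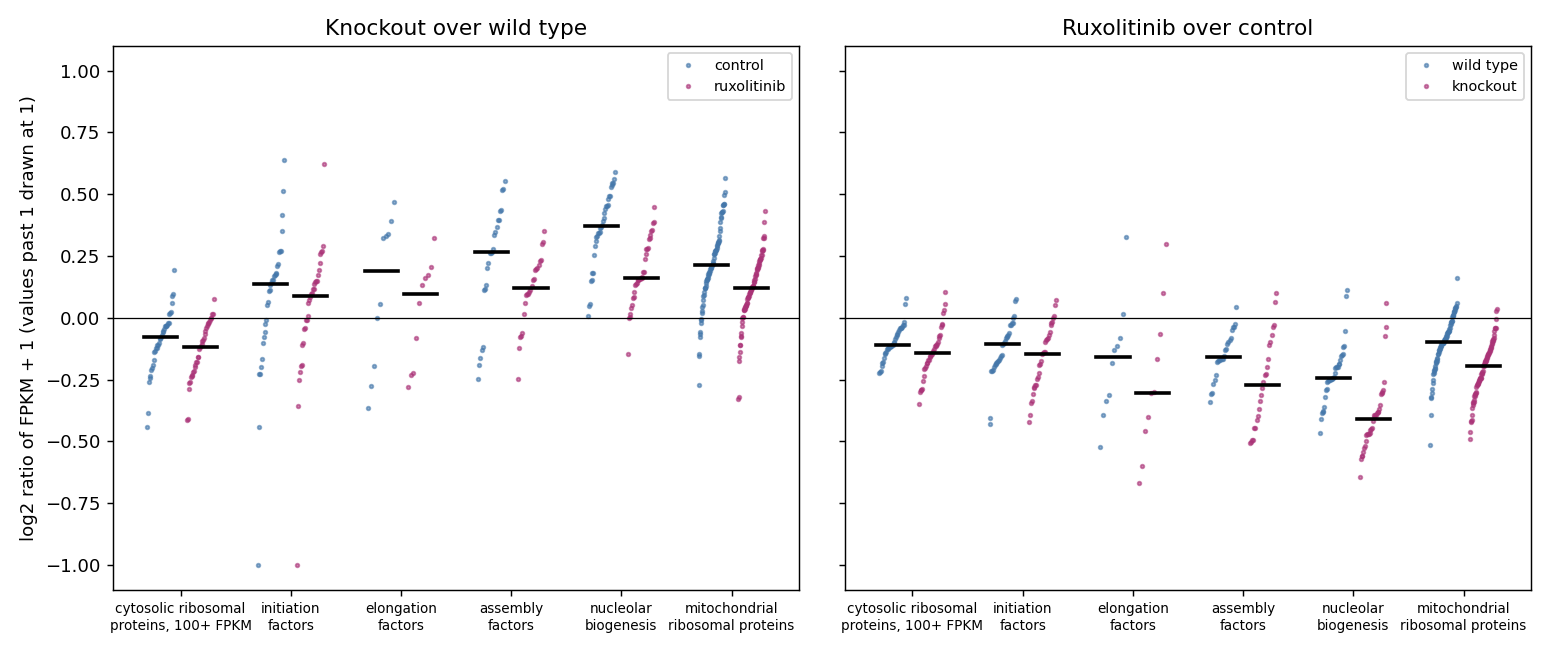
Log2 ratios of FPKM + 1 for single genes (points) and their median (bar) in 6 gene groups, knockout over wild type on the left and ruxolitinib over control on the right, with values past 1 drawn at 1. The nucleolar medians are 0.37 and 0.16 on the left and -0.24 and -0.41 on the right, and the medians of the abundant ribosomal proteins lie below 0 on both sides as deposited.

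The start of the transcript was read for the 52 of 69 genes in the RefSeq table of start windows (GRCm38.p6). At the annotated start, a C followed by at least 4 pyrimidines on the transcribed strand was found for 12 of them (23.1%), against 2.85% of 7963 measured genes with a window. The motif CCGGAAG, bound by GABP, was found on either strand of the window of 300 bases in 46.2% of the 52 genes and 22.8% of measured genes. The windows below show 15 bases on each side of the annotated start for 3 abundant genes with such a start and for the 2 abundant genes with the most negative knockout ratios, which lack it. Capitals mark the unbroken pyrimidine run from the start base.
Rpl35, chr2:39005117-39005146, minus strand: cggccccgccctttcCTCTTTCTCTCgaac
Rps10, chr17:27635230-27635259, minus strand: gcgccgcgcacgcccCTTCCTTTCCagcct
Rps18, chr17:33955651-33955680, minus strand: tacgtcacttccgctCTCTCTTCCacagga
Rplp0, chr5:115559452-115559481, plus strand: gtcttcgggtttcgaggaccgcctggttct
Rpl22l1, chr3:28805493-28805522, plus strand: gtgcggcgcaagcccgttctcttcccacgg

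The capitals cover 11, 10 and 9 bases in Rpl35, Rps10 and Rps18, and Rpl22l1 has its pyrimidine run inside the transcript instead. An annotated start may lie some bases from the one used, so a missing run says only that it is not at this position. Among genes at 100 FPKM or more, the 7 with a pyrimidine start had median drug ratios of -0.07 in wild type and -0.23 in knockout cells, and the 20 without had -0.11 and -0.12. The ranges of the 2 sets overlapped, and their difference was not tested.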

How the data were processed

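Illumina libraries were made from total RNA after removal of ribosomal RNA, per the labels' protocols. The submitters' processing notes name STAR, Cuffdiff and mm10, without versions, and no source used here names the annotation. FPKM values for 24340 genes in 4 libraries are as the authors deposited them. A table of the authors' own pairwise comparisons was deposited too, with a log2 fold change, p-value and q-value per gene. Its q-values are given where named, and its 2 columns of expression values per pair were not used here.

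Libraries were assigned to groups by title. Genes averaging 1 FPKM or more counted as measured, and ratios were taken on log2(FPKM + 1). With 1 library per group no test was made. Members, lists and rules were chosen with earlier results of these data known. Named were the 5 highest and 5 lowest members, the 3 highest and 3 lowest ratios and all members past 1.5-fold per comparison, and a fixed set of members by role. Further genes (Rps7, Rps10, Rps15a, Rps16, Rps18, Rps26, Rpl35, Rpl37a) were chosen after their values were seen. Some genes that the rule names are not reported here. Depth was estimated from the steps between low FPKM values, of which 79.5% to 81.6% lay within 0.15 of a whole multiple, so no counts were recovered. Fragment numbers use GENCODE M21 transcript lengths. Coding sequences of 84 members, the longest annotated one of each, came from GENCODE M21 (GRCm38). Python 3.11.15 with pandas 2.3.3 was used, and the steps were tested on simulated data.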

Additional observations from a re-analysis of the deposited data

Results flagged for a closer look

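In 2 genes the same contrast had opposite signs in the other condition with both ratios at 1.2-fold or more. Other genes changed sign with at least 1 of the ratios smaller: with the drug, 51 of the 69 genes were lower in both genotypes, against 36.5% of all genes, and 3 were higher in both. The ruxolitinib ratio of Rpl11 was -0.27 in wild type and 0.35 in knockout cells, with the knockout ruxolitinib library highest at 4.35 FPKM. The knockout ratio of Rpl38 was 0.38 without drug and -0.38 with drug. Each ratio sets 1 library against 1 other, and the difference was not tested in either gene. Every 50-base coding stretch of both genes occurs in other annotated genes.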

How the results depend on the processing

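With 1 library per group, no alternative carries an error, and depth limits the genes under 10 FPKM, where 10 to 143 fragments per library were estimated for Rps12, Rps13, Rpl38 and Rpl11. No paired analysis was possible because each group holds 1 library and the labels give no replicate numbers. Leaving out proteins under 150 residues was not run, since protein lengths were not used here, and a coding length limit of 450 bases took its place. That limit, the share of repeated stretches, the filter of 20 FPKM and the locus sums were chosen after seeing the data.

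Rescaling to TPM turned the knockout medians positive, to 0.0825 for all members, 0.0716 for the small and 0.0940 for the large subunit without drug, and to 0.0211, 0.0035 and 0.0367 with drug. It moved the wild type drug median to -0.0618 and the small subunit median of the difference between drug ratios to -0.0835. The counts past 1.5-fold became 3 higher in the knockout control, 2 lower with drug in wild type and 5 lower in knockout cells, and 5 lower for the difference. With a pseudocount of 0.1, 3 were lower with drug in wild type, 5 in knockout cells and 6 for the difference. With a pseudocount of 5, 1 was lower in the knockout with drug and 0 were past 1.5-fold in any other comparison or direction. With a filter of 5 FPKM, 0 were higher in either knockout comparison or the difference, 1 was lower in the knockout with drug and 1 for the difference. With a filter of 20 FPKM, 0 were past 1.5-fold between genotypes and 0 higher for the difference, 1 (Rpl17) was lower with drug in knockout cells and 1 for the difference. A looser limit, 25% above or 20% below, gave 4 higher and 3 lower in the knockout control, 8 lower in the knockout with drug, 1 higher and 3 lower with drug in wild type, 1 higher and 8 lower in knockout cells, and 9 lower for the difference. Without paralogs 0 and 1 were higher in the knockout without and with drug. Members with under 40% of stretches repeated gave 0 in every direction and a small subunit knockout median with drug of -0.0089. Without short coding sequences 0 were past 1.5-fold in the knockout control, 1 was higher and 1 lower with drug, 0 lower with drug in wild type, 1 lower in knockout cells and 1 higher for the difference. With copies at the same locus summed, 0 were lower in the knockout control, 1 in the knockout with drug (Rps13) and 0 with drug in wild type. The summed Rpl34 locus is not in these counts. Its sum was 892, 846, 6.58 and 3.63 FPKM. The Rpl34-ps1 row was listed at 0 in the knockout libraries, which can be a failed estimate. The gap between genotypes in the sum rests mostly on that row, so it is not read as a difference and no fold is given. Without the 5 most abundant genes the shares of all FPKM were 3.25%, 3.15%, 3.38% and 3.11%. Centring on the median ratio, leaving out the filter and leaving out 3 X-linked members moved none of the 25 medians and counts.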
